A study of Mus musculus with 6 samples.

Results

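RNA levels of 10 genes that guide the axons of olfactory sensory neurons or hold them together were followed in olfactory epithelium of Harlequin mice. The genes encode the secreted or membrane-bound ligands Sema3a, Slit1 and Efna5, the receptors Nrp1, Nrp2, Plxna1, Robo2 and Epha5, and the adhesion molecules Kirrel3 and Ncam2. Every probe set that the platform annotation assigns to exactly 1 of these symbols was taken, which gave 28 of the 45037 probe sets that are not array controls. Epithelium was microdissected from 3 male Harlequin mice, hemizygous for the mutation (genotype Hq/Y, with B6CBACAw-J/A-Pdcd8-Hq/J as strain name), and from 3 male littermates without it (genotype +/Y, with B6CBACa as strain name). All mice were 6 months old, and each mouse was profiled on its own Affymetrix array, so the replicates are separate animals. In Harlequin mice the X-linked gene Aifm1, once called Pdcd8, is mutated. It encodes the mitochondrial apoptosis-inducing factor. The study set out to relate expression to the neurodegeneration under oxidative stress in this mutant. The strain names differ along with the genotype, although the controls are labelled littermates. Any contribution of strain background cannot be told apart from that of the mutation.

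Each olfactory sensory neuron sends its axon through the lamina propria into the olfactory bulb, where axons of neurons with the same odorant receptor meet in the same glomeruli. Class 3 semaphorins such as Sema3a repel axons through a neuropilin that binds the ligand and a plexin that signals, Slit proteins repel axons through Robo receptors, and ephrin-A ligands act through EphA receptors on contact. Kirrel3 and Ncam2 belong to the immunoglobulin superfamily and sit on the axon surface, where Kirrel3 takes part in the sorting of like axons and Ncam2 marks axons of the ventral part of the epithelium. These neurons are renewed throughout life, and guidance genes therefore remain in use in the adult epithelium.

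Promoter sequences are shown for 4 of the genes, Epha5 and Robo2 because they had the highest and the lowest genotype difference among the 28 probe sets, and Nrp2 and Ncam2 because their values were low together on the same array. The windows run from 250 bases before to 50 bases after a transcript start and come from RefSeq on build GRCm38.p6, which held at least 1 window for 7 of the 10 genes. Capitals mark TAATTA, a core recognised by homeodomain proteins, and CCCNNGGG, the core of the element bound by Ebf factors, searched on both strands, and each window is printed 5′ to 3′.
Epha5, chr5:84417333-84417632, minus strand: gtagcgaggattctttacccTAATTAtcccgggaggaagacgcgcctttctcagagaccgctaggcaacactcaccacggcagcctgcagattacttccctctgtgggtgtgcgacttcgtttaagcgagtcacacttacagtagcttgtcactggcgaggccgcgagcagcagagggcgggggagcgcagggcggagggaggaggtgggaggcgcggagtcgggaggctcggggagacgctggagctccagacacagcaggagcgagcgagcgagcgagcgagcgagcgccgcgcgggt
Robo2, chr16:74411776-74412075, minus strand: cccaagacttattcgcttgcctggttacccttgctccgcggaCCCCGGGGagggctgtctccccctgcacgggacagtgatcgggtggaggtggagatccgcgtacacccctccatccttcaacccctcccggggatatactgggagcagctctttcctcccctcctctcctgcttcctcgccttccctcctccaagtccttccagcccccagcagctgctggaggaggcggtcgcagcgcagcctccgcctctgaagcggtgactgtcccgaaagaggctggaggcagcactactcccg
Nrp2, chr1:62703067-62703366, plus strand: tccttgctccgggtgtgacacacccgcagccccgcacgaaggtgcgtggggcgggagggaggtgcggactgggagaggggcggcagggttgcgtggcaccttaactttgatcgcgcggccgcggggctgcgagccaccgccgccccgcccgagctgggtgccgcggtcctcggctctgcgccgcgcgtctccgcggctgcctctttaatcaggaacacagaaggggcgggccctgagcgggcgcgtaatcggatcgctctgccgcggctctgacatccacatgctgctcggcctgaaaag
Ncam2, chr16:81200447-81200746, plus strand: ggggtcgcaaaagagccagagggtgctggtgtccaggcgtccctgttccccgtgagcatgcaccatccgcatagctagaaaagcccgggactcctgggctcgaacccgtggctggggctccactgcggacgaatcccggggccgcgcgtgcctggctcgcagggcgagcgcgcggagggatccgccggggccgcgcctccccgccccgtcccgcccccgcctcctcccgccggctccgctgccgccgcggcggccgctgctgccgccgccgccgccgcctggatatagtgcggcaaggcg
The Epha5 window held TAATTA 1 time, as did 5.29% of all 32851 RefSeq promoter windows of this length. The Robo2 window shown held CCCNNGGG 1 time, a core found in 13.7% of all windows, and the other 2 windows listed for Robo2 held it 0 times. The Ncam2 and Nrp2 windows held neither motif. All 4 windows shown were above the median G or C share of all windows, 52.7%, at 75.7% for Ncam2, 70.7% for Nrp2, 65.0% for Robo2 and 64.3% for Epha5. A match describes the letters of the window and is not a binding site.

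The mutated gene checked the genotype labels. Aifm1 gave 335.4, 221.1 and 211.2 in Harlequin, against 1239.9, 1255.6 and 1128.2 in controls. The values are probe set intensities on a linear scale, which the deposited table gives after each array was scaled to a trimmed mean of 500. Aifm1 fell to 21.2% of the control mean, with a log2 fold change of -2.20 (SE 0.18) and a limma adjusted p of 0.0214. That call was lost without control replicate 1, 2 or 3 (adjusted p = 0.171, 0.109 and 0.101) and without Harlequin replicate 2 (0.0934). By exact two-sided permutation of the 6 arrays its p was 0.1, and 3 against 3 arrays can give none smaller. The tissue label was checked on Omp, the marker of mature olfactory sensory neurons, which averaged 17458 ± 1475 in Harlequin and 16887 ± 479 in controls (SD, n = 3 each). In bulk tissue, fewer cells of a type and less RNA per cell cannot be told apart.

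Of the 28 probe sets of the 10 genes, 0 passed an adjusted p of 0.05 over all probe sets in limma, where 0.0133% of all probe sets did. The smallest adjusted p among them was 0.862. At an unadjusted p under 0.05 there were 3, of which 2 were higher and 1 lower in Harlequin, where 5.04% of all probe sets passed, 2.17% higher and 2.87% lower. The groups did not overlap at 4 probe sets, 2 higher and 2 lower in Harlequin, or 14.3%, beside 9.96% of all probe sets, 4.37% higher and 5.58% lower. The median log2 difference was 0.07, against -0.011 over all probe sets, and 17 of 28 differences were above 0, where 47.9% of all probe sets had one above 0. Differences are Harlequin minus control on the scale of log2(signal + 16), which understates changes of dim probe sets. The 95% intervals of the 28 differences reached between 0.22 and 1.05 on either side of the estimate, with a median of 0.48. All probe sets but 2, a dim probe set each of Sema3a and Slit1, had a mean signal above the 40th percentile of all probe sets, 63.8. Harlequin replicate 1 stood apart at many of these probe sets. Without it 6 of the 28 differences changed sign and 15 others moved by over 1.5 times, and these values are given for each gene or together after the genes.

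**Figure D1:**
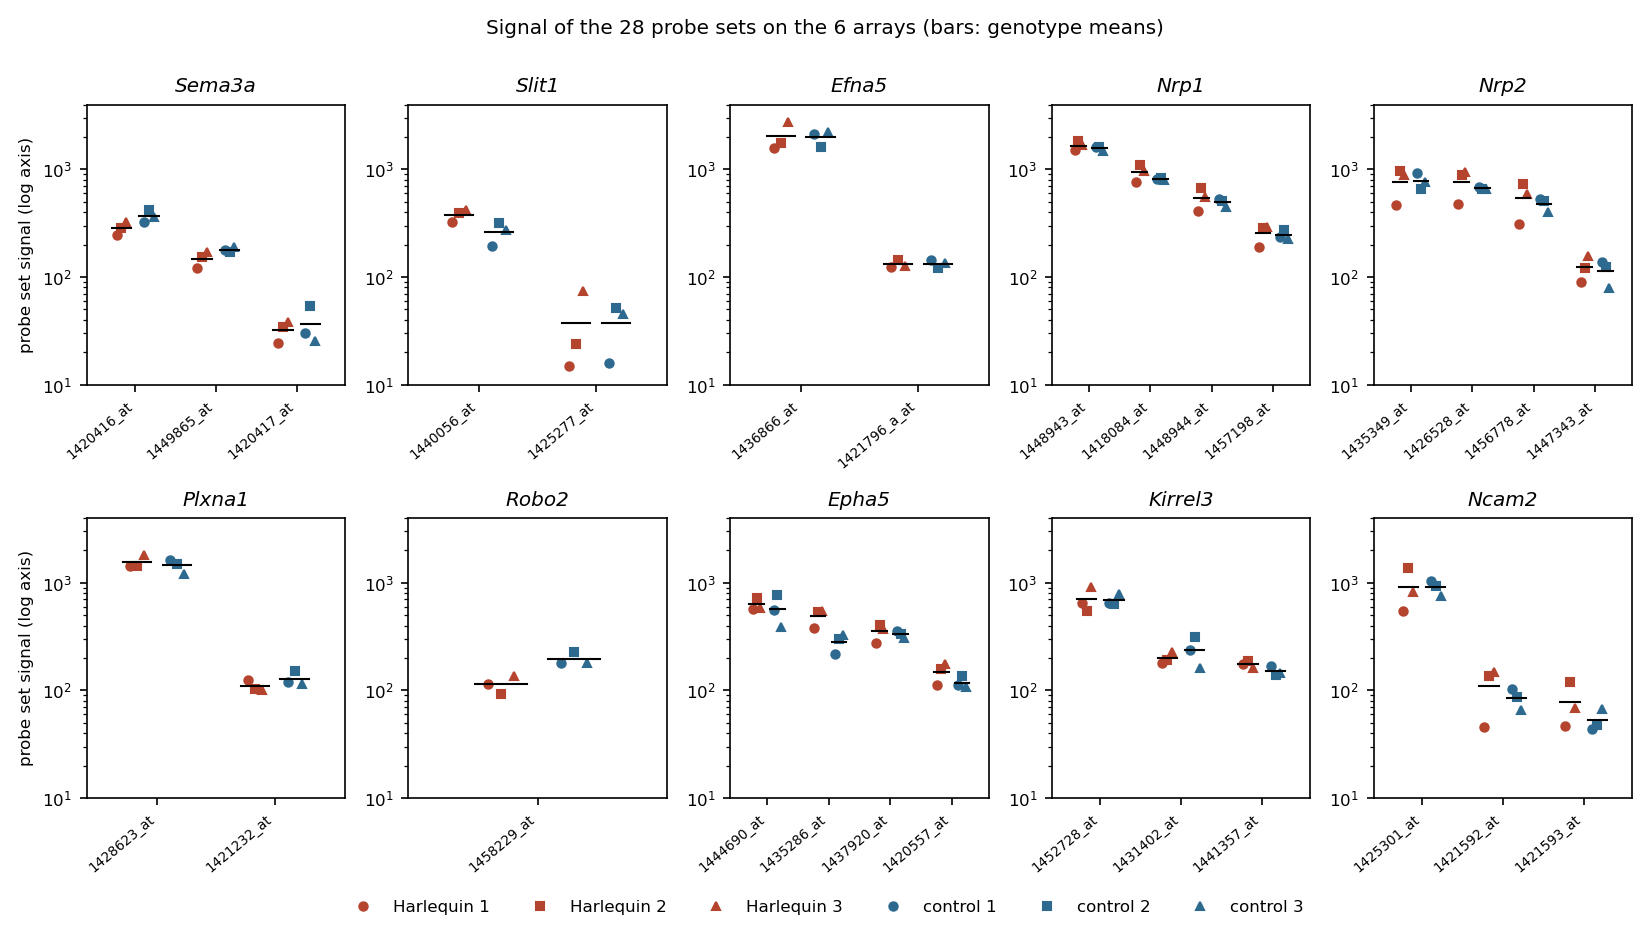
Signal of each of the 28 probe sets on the 6 arrays, in 1 panel per gene, with signal on a log axis and the genotype mean as a bar. Red points are Harlequin and blue points control, with replicate 1 as circle, 2 as square and 3 as triangle. The groups stand apart at 1440056_at of Slit1, 1458229_at of Robo2, 1435286_at of Epha5 and, by a small margin, 1420416_at of Sema3a.

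Of the 7 ligand probe sets 4 had a lower mean signal in Harlequin, 6 had a log2 difference below 0, and 1, of Slit1, had an unadjusted p under 0.05 in limma. Sema3a, the secreted repellent that binds Nrp1, was lower on average at all 3 of its probe sets. Probe set 1420416_at gave 244.5, 283.2 and 323.4 in Harlequin, against 327.1, 417.5 and 362.9 in controls. The highest Harlequin value lay just below the lowest control value, and the difference of -0.36 (SE 0.16) did not pass (limma adjusted p = 0.972). Probe set 1449865_at gave 120.2, 154.5 and 169.9 in Harlequin, against 178.9, 169.3 and 188.6 in controls. Here the groups overlapped by a small margin, at a difference of -0.26 (95% interval -0.70 to 0.19). The third probe set, 1420417_at, was dim and averaged 32.3 ± 7.27 in Harlequin and 36.6 ± 15.2 in controls (SD, n = 3 each), with a difference of -0.098. Harlequin replicate 1 was the lowest of the 6 arrays at all 3 probe sets, and without it the differences were -0.27, -0.13 and 0.027.

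Slit1, a secreted repellent for axons that carry Robo receptors, was measured by a brighter and a dim probe set. The brighter, 1440056_at, gave 324.5, 391.6 and 414.6 in Harlequin, against 194.3, 315.2 and 274.6 in controls. All 3 Harlequin values lay above the controls, with control replicate 2 next below. The difference of 0.52 (SE 0.20, unadjusted p = 0.0289) did not pass over all probe sets (limma adjusted p = 0.972), and it ran between 0.33 and 0.66 with 1 array left out. The dim probe set, 1425277_at, ranged from 14.9 to 74.5 in Harlequin and from 15.8 to 51.3 in controls. Its difference of -0.078 had an interval of -1.13 to 0.97, too wide to set beside the brighter probe set. Markers of olfactory bulb and brain, another source of Slit1, had 12 of 12 genes on the array and 6 above the 40th percentile. Their summed signal was between 7608 and 10054 in Harlequin and between 7487 and 8163 in controls, none of the 12 was at 0, and the part of that list in the Slit1 result was not tested. Calb2 made up more of this sum than any other gene and averaged 5641 in Harlequin and 4795 in controls. The groups did not overlap at 2 genes that were higher in Harlequin and at 1 that was lower, and 0 of the 12 passed in limma. Over all probe sets 4.37% were higher and 5.58% lower without overlap. Among the genes of bulb projection neurons, Eomes averaged 952 in Harlequin and 640 in controls (difference 0.57), Reln averaged 459 in Harlequin and 668 in controls (difference -0.52), and Tbr1 averaged 26.5 in Harlequin and 23.5 in controls, below that percentile. Also below it were Tbx21 (8.70 in Harlequin and 14.5 in controls) and Slc17a7 (26.1 and 35.1). So were Th (29.3 and 38.8), Gad1 (34.0 and 17.7) and Neurod6 (12.7 and 5.83).

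Efna5, the membrane-anchored ligand of EphA receptors, had differences near 0 at both of its probe sets. Probe set 1436866_at gave 1585.0, 1769.9 and 2748.9 in Harlequin, against 2143.3, 1625.9 and 2238.4 in controls. Harlequin replicate 3 was the highest and Harlequin replicate 1 the lowest of the 6 arrays, and the control values lay between them. The mean signal was 2035 in Harlequin and 2003 in controls, while the difference on the log2 scale was -0.0053 (95% interval -0.48 to 0.47), and 0.15 without Harlequin replicate 1. Probe set 1421796_a_at averaged 131 ± 11.1 in Harlequin and 133 ± 10.9 in controls (SD, n = 3 each), with a difference of -0.022 (95% interval -0.46 to 0.42).

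Among the receptors, 12 of 15 probe sets were higher on average in Harlequin, at a median difference of 0.10, and 0 passed (limma), with 2 at an unadjusted p under 0.05. Over all probe sets 47.9% had a difference above 0. The 12 were 4 of Nrp1, 4 of Epha5, 3 of Nrp2 and 1 of Plxna1, so they are not independent observations. Nrp1, the neuropilin that binds Sema3a, was higher on average at all 4 probe sets, by 0.047 to 0.20. The brightest, 1448943_at, gave 1514.8, 1816.3 and 1667.2 in Harlequin, against 1608.6, 1616.5 and 1487.8 in controls, and the groups overlapped. Its interval of -0.14 to 0.30 was the narrowest of the 28. Probe set 1418084_at gave 761.0, 1099.3 and 969.6 in Harlequin, against 807.1, 833.4 and 796.2 in controls. Harlequin replicate 1 lay below all 3 controls there and the other Harlequin arrays above them. Endothelial cells also carry Nrp1. Of the endothelial list, 10 of 10 genes were on the array and 9 above the 40th percentile, none was at 0, and the summed signal was between 1952 and 2082 in Harlequin and between 2114 and 2668 in controls. The part of that list in the Nrp1 values was not tested. Its member Pecam1 averaged 115.5 ± 15.2 in Harlequin and 137 ± 57.9 in controls (SD, n = 3 each).

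Nrp2, the neuropilin of Sema3f and a receptor that differs along the axis of the epithelium, varied more among the mutants than between the genotypes. Probe set 1426528_at gave 475.5, 895.3 and 940.9 in Harlequin, against 689.1, 651.3 and 661.9 in controls. The controls were tightly grouped at 667 ± 19.5, and the Harlequin values, at 771 ± 257, lay on both sides of them (SD, n = 3 each). The difference was 0.14 (95% interval -0.39 to 0.68). At 1435349_at the values were 469.0, 966.1 and 878.4 in Harlequin, against 925.3, 661.8 and 770.8 in controls, a difference of -0.079. At 1456778_at they were 310.4, 728.2 and 586.6 in Harlequin, against 525.6, 510.7 and 401.0 in controls, a difference of 0.10. Harlequin replicate 1 was the lowest array at these 3 probe sets. At the dimmer 1447343_at control replicate 3 was the lowest, and Nrp2 averaged 123 ± 33.6 in Harlequin and 114 ± 30.4 in controls (SD, n = 3 each).

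Plxna1, the plexin that passes on the semaphorin signal for neuropilins, gave 1417.4, 1417.4 and 1813.4 at 1428623_at in Harlequin, against 1637.0, 1501.4 and 1212.4 in controls. The groups overlapped, at a difference of 0.096 (95% interval -0.23 to 0.42). Its dimmer probe set, 1421232_at, averaged 110 ± 13.2 in Harlequin and 129 ± 20.8 in controls (SD, n = 3 each), a difference of -0.19 in the other direction.

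Robo2, a receptor for Slit proteins, had the lowest value of the 28 differences. Its single probe set, 1458229_at, gave 115.7, 92.5 and 134.9 in Harlequin, against 181.2, 227.0 and 181.2 in controls. Every Harlequin value lay below every control value. The difference was -0.71 (SE 0.21, 95% interval -1.19 to -0.23) and the unadjusted p 0.00900, but the limma adjusted p over all probe sets was 0.915. With 1 array left out the difference ran between -0.82 and -0.58. Which part of the Robo2 transcript this probe set covers was not analysed here, and no second probe set could be set beside it.

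Epha5, a receptor tyrosine kinase for ephrin-A ligands, was higher on average at all 4 of its probe sets, by amounts that differed widely. Probe set 1435286_at gave 380.9, 529.9 and 551.9 in Harlequin, against 219.5, 298.7 and 329.0 in controls. Every Harlequin value lay above every control value, and the difference of 0.76 (SE 0.20, 95% interval 0.30 to 1.21) was the highest of the 28. The unadjusted p was 0.00489 and the limma adjusted p over all probe sets 0.862, and with 1 array left out the difference ran between 0.59 and 0.92. At 1444690_at Epha5 gave 575.8, 724.6 and 588.5 in Harlequin, against 553.2, 774.1 and 388.9 in controls, and the groups overlapped. The differences at 1420557_at, 1444690_at and 1437920_at were 0.28, 0.18 and 0.062, each with an interval that spanned 0. The mean over the 4 probe sets was higher in Harlequin by 0.32, and the brightest probe set, 1444690_at, is the one that a choice by signal would take to stand for the gene.

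**Figure D2:**
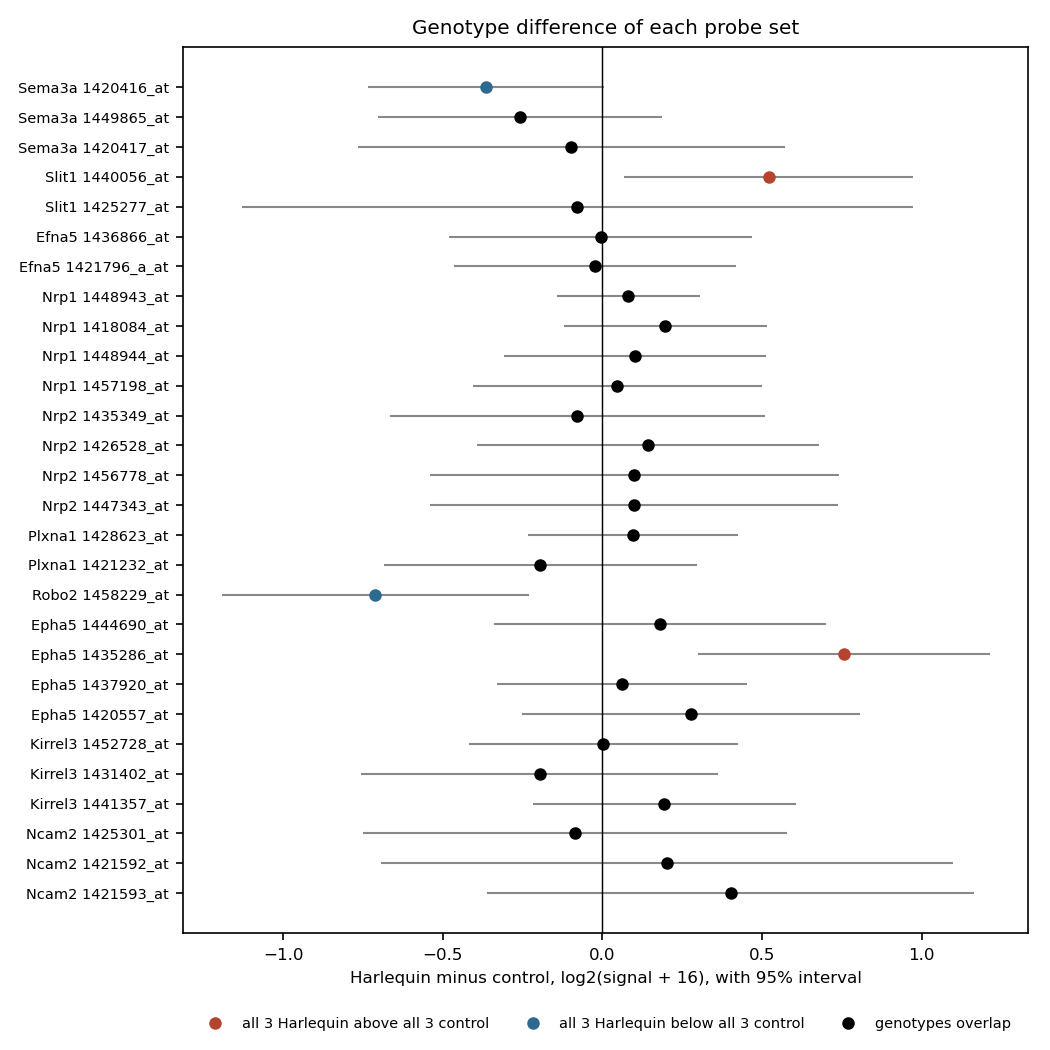
Difference of each of the 28 probe sets, Harlequin minus control on the log2(signal + 16) scale, as a point with its 95% interval. Colours mark whether the 3 Harlequin values all lay above (red) or below (blue) the 3 control values or overlapped with them (black). Intervals leave 0 on one side only at Epha5 1435286_at (0.76), Slit1 1440056_at (0.52) and Robo2 1458229_at (-0.71).

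The adhesion genes overlapped between the genotypes at all 6 of their probe sets, and 0 had an unadjusted p under 0.05 in limma. Kirrel3, a homophilic adhesion molecule of axons that takes part in their sorting, gave 649.8, 552.1 and 914.3 at its brightest probe set, 1452728_at, in Harlequin, against 653.5, 638.1 and 782.9 in controls. The Harlequin values spanned all controls, and the difference was 0.0028 (95% interval -0.42 to 0.42). Its other probe sets lay in opposite directions. Kirrel3 differed by 0.19 at 1441357_at and by -0.20 at 1431402_at, where control replicates 2 and 3 were the highest and the lowest array, at 316.5 and 160.2.

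Ncam2, the adhesion molecule of ventral axons also known as OCAM, spread widely among the mutants. Probe set 1425301_at gave 548.5, 1375.3 and 813.4 in Harlequin, against 1049.3, 936.3 and 751.9 in controls. Harlequin replicate 2 was the highest and replicate 1 the lowest of the 6 arrays, with means of 912 ± 422 in Harlequin and 912.5 ± 150 in controls (SD, n = 3 each). The difference was -0.086 (95% interval -0.75 to 0.58). At 1421592_at Ncam2 gave 45.3, 134.8 and 149.6 in Harlequin, against 103.8, 86.2 and 66.2 in controls, a difference of 0.20. At 1421593_at it gave 46.9, 120.3 and 68.7 in Harlequin, against 43.4, 47.8 and 67.2 in controls, a difference of 0.40. Both of these were dim, and their intervals reached 0.90 and 0.76 on either side.

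Across the 10 genes, Harlequin replicate 1 was the lowest of the 6 arrays at 14 of the 28 probe sets and the highest at 0, while over all probe sets it was the lowest at 19.9% and the highest at 14.9%. Probe sets of the same gene share their target, so these are not 28 independent observations. The median deviation from the mean of the 6 arrays was -0.31, 0.20 and 0.14 over the 28 probe sets on the Harlequin arrays, against 0.037, 0.017 and -0.14 on the control arrays. Over all probe sets the median deviation of Harlequin replicate 1 was -0.024. On that array the median deviation was -0.66 for Ncam2, -0.59 for Nrp2, -0.38 for Sema3a and 0.0012 for Plxna1. Robo2, at -0.33, lay between the other Harlequin arrays there, which were at -0.61 and -0.13. The log2 SD was larger among Harlequin than among control arrays at 19 of 28 probe sets, or 67.9%, where 49.3% of all probe sets had the larger SD in Harlequin. The median SD was 0.28 in Harlequin and 0.20 in controls for the 28, and 0.23 in both for all probe sets. These SDs include Harlequin replicate 1, the lowest array at 14 of the 28, and were not computed without it. They are thus no separate result on the spread between mutant mice.

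Without Harlequin replicate 1, 23 of the 28 differences were above 0 and their median was 0.23, over 1.5 times the value with all arrays. That array stood out by being low at many of these same probe sets. Leaving it out therefore raises their differences by construction, and the counts that follow are no evidence of a direction. At an unadjusted p under 0.05 there were then 7 probe sets, 6 higher and 1 lower in Harlequin, where 4.91% of all probe sets passed in either direction, and 0 passed an adjusted p of 0.05 in limma. The 6 were Nrp2 at 1426528_at (0.45) and 1456778_at (0.45), Nrp1 at 1418084_at (0.34), Ncam2 at 1421592_at (0.66), Epha5 at 1435286_at (0.92) and Slit1 at 1440056_at (0.62), and the other was Robo2 (-0.72). The smallest adjusted p of the 28 was 0.872 in that setting. The differences that changed sign were those of Nrp2 at 1435349_at (-0.079 with all arrays, 0.24 without that array), Ncam2 at 1425301_at (-0.086 and 0.22), Slit1 at 1425277_at (-0.078 and 0.24), Sema3a at 1420417_at and both of Efna5 (0.15 and 0.020 without that array). Among those that moved by over 1.5 times without reaching that p, Nrp1 differed by 0.29 at 1448944_at (0.10 with all arrays), 0.23 at 1457198_at (0.047) and 0.15 at 1448943_at (0.081). Epha5 differed by 0.45 at 1420557_at (0.28) and by 0.22 at 1437920_at (0.062), and Ncam2 by 0.66 at 1421593_at (0.40). Nrp2 at 1447343_at differed by 0.28 (0.10), Plxna1 at 1428623_at by 0.15 (0.096), and Kirrel3 by 0.045 at 1452728_at (0.0028) and -0.13 at 1431402_at (-0.20). Leaving out Harlequin replicate 3 or control replicate 3 turned the median of the 28 to -0.039 and -0.0019, and leaving out Harlequin replicate 2 took it to 0.0066.

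Several marker lists differed on the same array. Deviations are means over the genes of a list, with 1 probe set per gene, from the mean of the 6 arrays. Mature sensory neuron markers, with 8 of 11 genes on the array and none at 0, deviated by -0.0044 on Harlequin replicate 1, and their summed signal was between 104464 and 108554 in Harlequin and between 100815 and 111352 in controls. Immature neuron markers, 10 of 10 on the array and none at 0, deviated by -0.036, with sums of 30862 to 34729 in Harlequin and 29227 to 34931 in controls. Without the gene farthest from its mean on that array, Kcnk1 and Dbn1 in turn, these 2 lists deviated by -0.025 and -0.072. Their part in the low Nrp2 and Ncam2 values of that array was not tested. Markers of globose basal cells and progenitors, 6 of 7 on the array and none at 0, deviated by -0.39, and by -0.10 when Neurog1 was left out, which was at 9.9 on that array and between 83.0 and 148.7 on the others. This list had sums of 5200 to 6186 in Harlequin and 5834 to 6733 in controls. Fibroblast and matrix genes, 12 of 12 and none at 0, deviated by -0.42 on that array and by -0.43 on Harlequin replicate 3, with sums of 21684 to 40569 in Harlequin and 28411 to 42761 in controls. Markers of respiratory ciliated cells, 7 of 7 and none at 0, deviated by 0.21 and those of horizontal basal cells, 6 of 6 and none at 0, by 0.23. Their sums were 7997 to 11115 and 3579 to 5069 in Harlequin, against 9578 to 10558 and 3623 to 4787 in controls. Erythrocyte genes, 5 of 7 on the array, summed to 2925 to 3772 in Harlequin against 713 to 1981 in controls, without overlap. Most of this sum was Alas2, which averaged 1665 in Harlequin and 591 in controls, and Slc4a1, which averaged 1221 and 504. Car1 averaged 306 in Harlequin and 119 in controls, and the dim Epb42 49.9 and 23.5. Hba-a1, also dim, lay the other way, at 12.9 in Harlequin and 37.8 in controls (difference -0.75). Of the 5 genes 2 were higher in Harlequin without overlap, where 4.37% of all probe sets were, and 0 passed in limma. The sums overlapped for sustentacular cells (6 of 6 on the array, 66287 to 67495 in Harlequin against 66201 to 68965 in controls), ensheathing and Schwann glia (10 of 12, 24720 to 27257 in Harlequin against 24666 to 30895 in controls, most of it Apod and Fabp7), bone and cartilage (7 of 8, 2725 to 4558 in Harlequin against 3320 to 3924 in controls) and macrophages (9 of 9, 5149 to 6008 in Harlequin against 4355 to 5592 in controls), and none of these genes was at 0. Within the glial list, at a median difference of -0.19, 2 of 10 genes were lower in Harlequin without overlap, where 5.58% of all probe sets were, and 0 passed in limma. S100b averaged 1112 in Harlequin and 1500 in controls (difference -0.42, limma adjusted p = 0.790), and Mbp averaged 495 in Harlequin and 770 in controls (difference -0.61, limma adjusted p = 0.896). Other genes of that list lay nearer 0, with differences of -0.027 for Apod, -0.056 for Erbb3, 0.0082 for Gfap and 0.057 for Frzb. The part of these cell types in the values of the 10 genes was not tested.

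**Figure D3:**
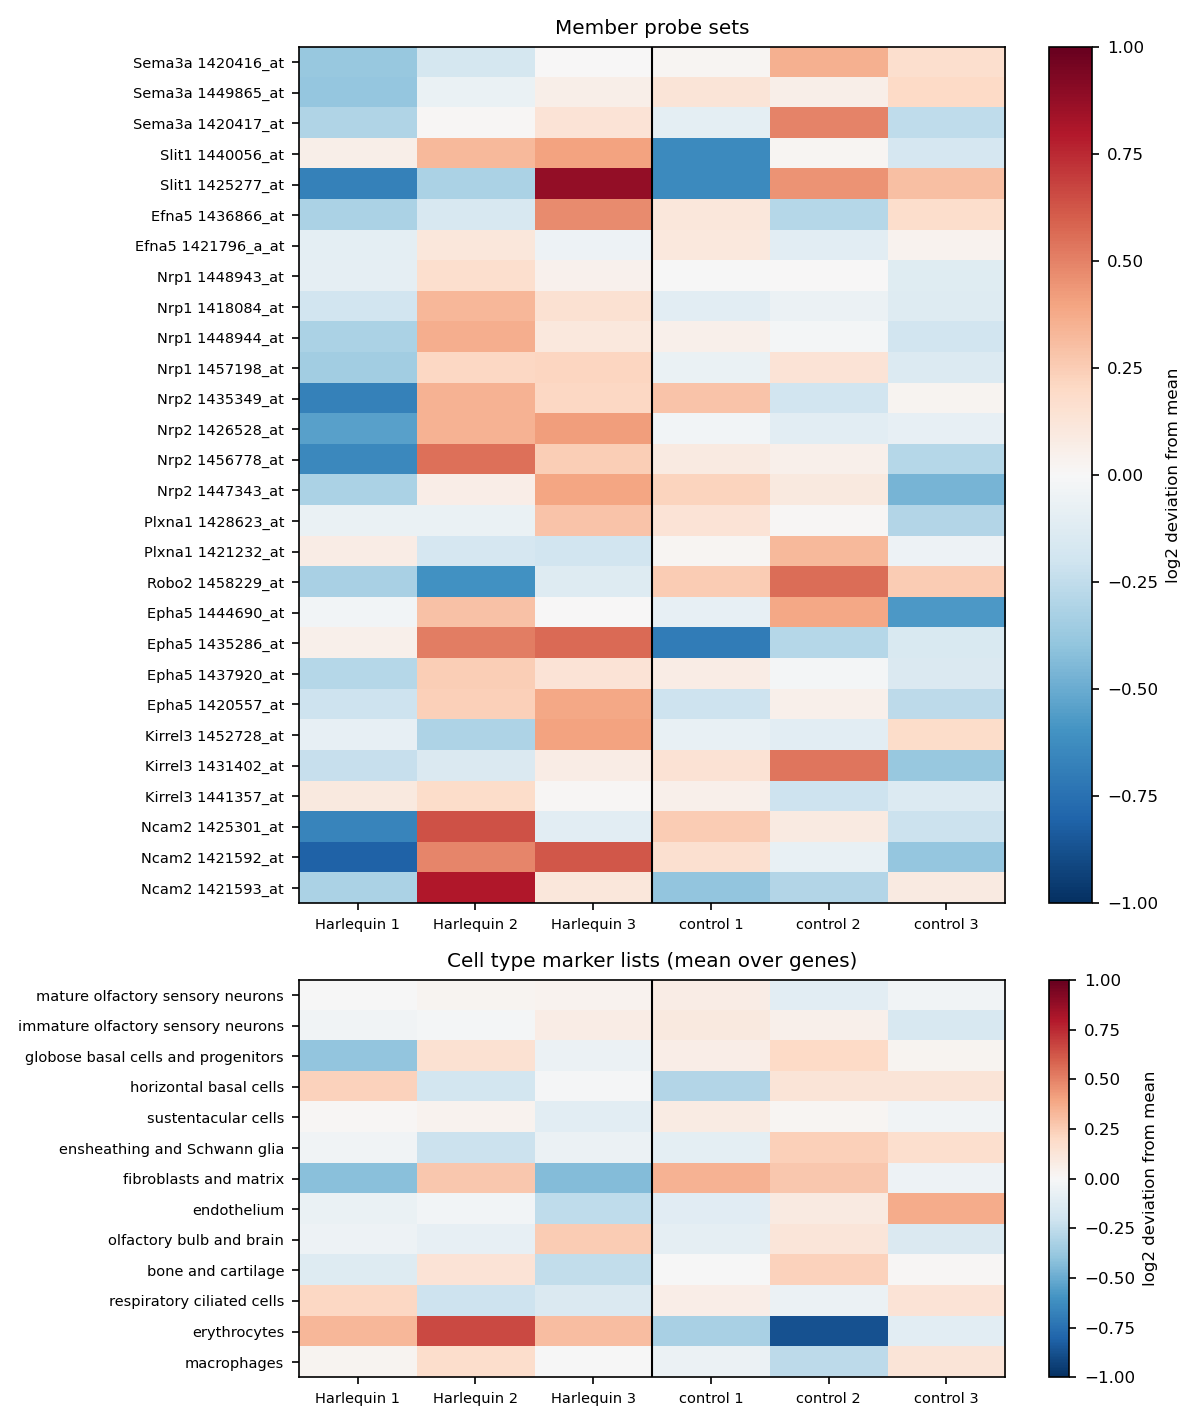
Deviation of each array from the mean of the 6 arrays on the log2(signal + 16) scale, for the 28 probe sets (upper panel) and for 13 cell type marker lists (lower panel, mean over the genes of a list). Columns are arrays with the Harlequin arrays on the left, red is above and blue below the mean. Harlequin replicate 1 is blue across Nrp2 and Ncam2, at medians of -0.59 and -0.66, while both neuronal lists lie near 0 on that array.

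Other genes of these pathways were counted from 7 lists of 125 symbols, of which 120 were on the array with 294 probe sets. None passed an adjusted p of 0.05 over all probe sets in limma, and 15 had an unadjusted p under 0.05, 6 higher and 9 lower in Harlequin. That is 5.10%, next to 5.04% of all probe sets. The groups did not overlap at 28 probe sets, or 9.52%, beside 9.96% of all. The median difference was -0.016.

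The other semaphorins, 19 of 19 genes with 45 probe sets, had a median difference of -0.096. Their groups did not overlap at 9 probe sets, all 9 lower in Harlequin, or 20.0%, where 5.58% of all probe sets were lower without overlap, and none passed the limma test. They had 3 probe sets at an unadjusted p under 0.05. Sema6a, a transmembrane semaphorin, averaged at 1425903_at 41.1 ± 8.75 in Harlequin and 88.3 ± 16.2 in controls (SD, n = 3 each; difference -0.87, limma adjusted p = 0.915), while 2 further Sema6a probe sets gave -0.35 and -0.035. Sema3d, a secreted relative of Sema3a, averaged at 1429459_at 441 ± 41.7 in Harlequin and 562 ± 33.7 in controls (difference -0.34) and differed by -0.056 at its other probe set. Sema5b averaged at 1422146_at 46.9 ± 3.67 in Harlequin and 81.9 ± 12.8 in controls (difference -0.63) and differed by 0.024 at its other probe set. The 6 others, named after their values were seen, were probe sets of Sema3b, Sema3g, Sema4a, Sema4d, Sema4f and Sema5a, with differences between -0.78 and -0.29. Further probe sets of these genes did not all go that way. Sema4d differed by 0.20 at its brightest probe set and by 0.11 at another, Sema4f by 0.30 and Sema4a by -0.012. Sema3b differed by -0.32 and -0.70 at its others, and Sema5a by -0.45, -0.44 and 0.0083. For Sema3g there was no other probe set. The fibroblast and endothelial lists described above had lower sums on 2 and on all 3 Harlequin arrays than on any control array, and their part in the semaphorin values was not tested.

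The other plexins, 8 of 8 genes with 20 probe sets, had a median of 0.097, with 15 of 20 higher, beside 47.9% of all probe sets, and 0 at an unadjusted p under 0.05 in limma. Plxna3, a co-receptor of neuropilins, averaged, at 1420996_at, 1205 ± 73.3 in Harlequin and 1030 ± 181 in controls (difference 0.23) and differed by 0.25 at 1420995_at. Plxnb2 differed by 0.14. The other Slit and Robo genes, 5 of 5 with 10 probe sets, had a median of -0.13 and 0 at an unadjusted p under 0.05. Slit2, a secreted relative of Slit1, differed by -0.24 at 1458140_at and -0.14 at 1424659_at but by 0.21 at its remaining probe set, and Robo3 differed by 0.53 at a dim probe set and by -0.12 at its other one. Netrins and their receptors, 13 of 13 with 28 probe sets, had a median of 0.037 and 0 at an unadjusted p under 0.05. Ntng1 (0.57), Ntn4 (-0.36) and Ntng2 (0.37) had the smallest p of that list, and both Ntng genes were near the lower end of the scale at these probe sets. Ntn4 differed by 0.044 at its other probe set, Ntng2 by 0.35, and Ntng1 by -0.043 to 0.46 at its 3 others.

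Other ephrins and Eph receptors, 19 of 20 genes with 39 probe sets, had a median of -0.048, with 1 probe set at an unadjusted p under 0.05 and 0 passing in limma. That was Efna3, an ephrin-A relative of Efna5, which at 1431170_at gave 5681.9, 5704.4 and 5803.7 in Harlequin, against 4288.6, 3826.4 and 5293.1 in controls. All Harlequin values lay above the controls (difference 0.37, SE 0.12, limma adjusted p = 0.952), and Efna3 differed by 0.18 at its other probe set. Epha6 (-0.55) and Epha1 (-0.80) were dim and ranked next, while Epha1 gave 0.12 and 0.39 at 2 further probe sets. Other adhesion molecules, 27 of 30 genes with 80 probe sets, had a median of -0.017, with 3 probe sets higher and 4 lower at an unadjusted p under 0.05 and 0 passing. Pcdh10, a protocadherin known in olfactory axons, averaged 28.2 ± 1.86 in Harlequin and 70.3 ± 14.0 in controls at 1430667_at (SD, n = 3 each; difference -0.95, limma adjusted p = 0.862) and differed by -1.13 at the dimmer 1438134_at. Its 4 other probe sets ran between -0.73 and 0.43, with 1 of them at an unadjusted p under 0.05. Tenm2, a teneurin, averaged at 1454424_at 306 ± 95.8 in Harlequin and 173 ± 27.2 in controls (SD, n = 3 each; difference 0.74). The 3 other Tenm2 probe sets differed by -0.17 to 0.048, and the brightest of them averaged 3598 in Harlequin and 3452 in controls. Cytoplasmic effectors, 29 of 30 genes with 72 probe sets, had a median of -0.038 with 2 higher and 2 lower at an unadjusted p under 0.05 and 0 passing. Crmp1, which mediates the response to Sema3a, averaged 1340 ± 103 in Harlequin and 1055 ± 202 in controls (SD, n = 3 each; difference 0.35), and its relative Dpysl5 differed by 0.74 at a dim probe set and by 0.29 at its other one. The actin-binding Ablim1 differed by -0.77 at 1460120_at, where it averaged 3.33 in Harlequin and 17.3 in controls near the lower end of the scale, and by -0.038 to 0.10 at its 3 other probe sets.

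**Figure D4:**
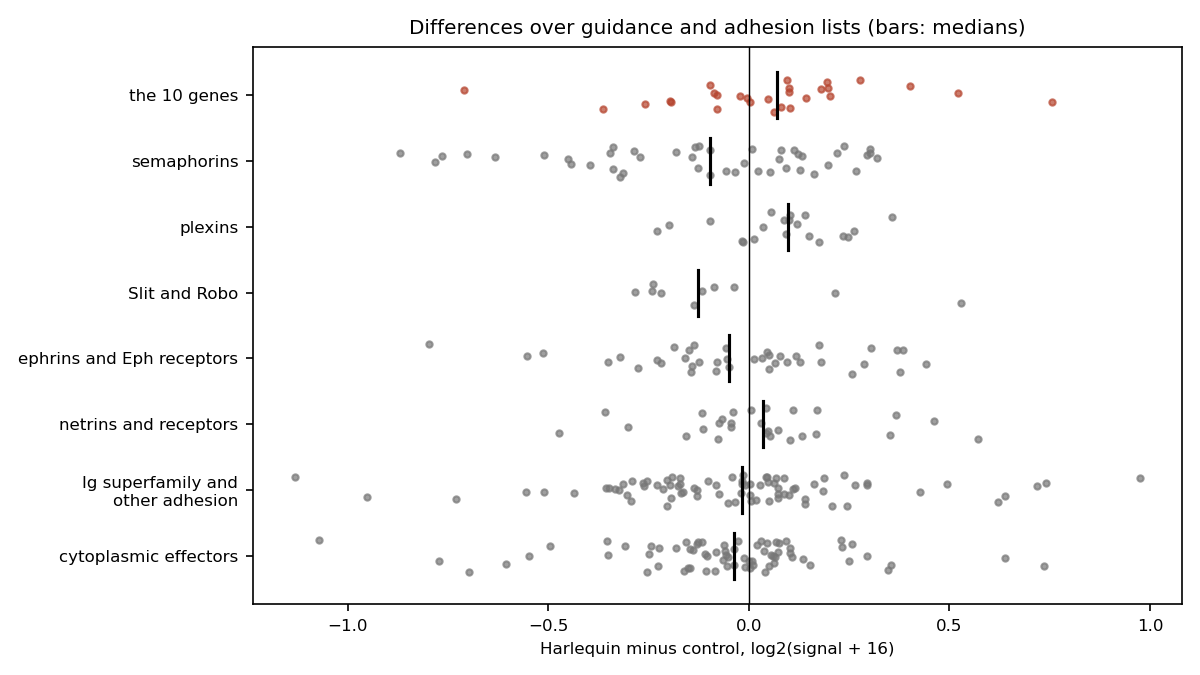
Differences of single probe sets, Harlequin minus control on the log2(signal + 16) scale, for the 10 genes (red) and for 7 lists of other guidance and adhesion genes (grey), with the median of each as a bar. The medians lie between -0.13 for the other Slit and Robo genes and 0.097 for the other plexins.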

How the data were processed

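Total RNA of 6 microdissected olfactory epithelia, 3 Harlequin and 3 control, was labelled as biotinylated cRNA and hybridized to Affymetrix arrays, per the labels' protocols. The authors deposited probe set intensities on a linear scale. Their trimmed mean, without the lowest and highest 2%, is 500 on every array, as after scaling, and the software behind them is not given in the sources used here. Such scaling does not remove differences between arrays that depend on intensity. Groups and replicate numbers came from the sample titles. The 64 control probe sets were left out. Genes were named from the platform annotation, which gives 1 gene for 34945 probe sets, several for 932 and none for 9160.

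Values were analysed as log2(value + 16) with limma 3.58.1 under R 4.3.3 (lmFit, then eBayes with an intensity trend) over all 45037 probe sets, without a filter, and two-sided p-values adjusted by the Benjamini-Hochberg method over all of them at 0.05. The probe set is the unit because the genes were chosen by probe set. Probe sets were ordered by signal only to tell bright from dim ones and to pick 1 per gene, and such an order does not compare RNA levels. The precision is limited by the number of arrays. On simulated data for Harlequin against control over 45037 probe sets, the fit recovered 39.6% of changes of a log2 of 1 and 81.6% of those of 2. The changes were planted only in probe sets above the 40th percentile of mean signal, with independent normal noise. Recovery at dimmer probe sets, or with an array that stands apart, was not measured. Python 3.11.15, pandas 2.3.3 and matplotlib 3.10.9 served for summaries and figures.

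The 10 genes, the pathway and marker lists and the tests were chosen with earlier results of these data known. The text names all probe sets of the 10 genes, Aifm1, up to 3 probe sets of smallest p in each pathway list, and Omp, S100b and Pecam1 as markers; other marker genes were named after their values were seen. Same-numbered arrays deviated from their genotype means with correlations of -0.17, 9e-04 and 0.10, so the numbers were not treated as pairs. The alternatives were pseudocounts of 1 and 64, quantile normalization, median scaling, leaving out probe sets below the 40th percentile of mean signal, no intensity trend, array weights, the brightest probe set or the mean per gene, a replicate block and each array left out.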

Additional observations from a re-analysis of the deposited data

How the results depend on the processing

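The count of 0 passing probe sets among the 28 held in limma under all 10 settings other than leaving out an array and in all 6 fits without 1 array, and so did the count of 0 among the 294 other pathway probe sets. The number of the 28 at an unadjusted p under 0.05 was 2 to 7 over the settings tested by probe set, highest without Harlequin replicate 1. Averaging a gene's probe sets left 1 of 10 genes at that level, where 872 of all 18193 genes were. The brightest probe set per gene left 3 of 10, where 606 of all 13238 genes in that setting were. With the replicate block the counts of passing probe sets were 0 and 0, over all probe sets 0 against 6 without it, and of the Harlequin arrays only replicate 3 correlated best with the control of its own number. Aifm1 kept its direction in every setting and lost its call without an intensity trend (adjusted p = 0.219), with the replicate block (0.0722) and without 1 array as given above. Quantile normalization and median scaling moved the median of all probe sets from -0.011 to 0.0009 and 0.014. The differences that changed sign were all far from passing. Efna5 1436866_at gave 0.025 with median scaling and 0.0042 with array weights, and 1421796_a_at gave 0.0029 with quantile normalization and 0.0048 with median scaling. Kirrel3 1452728_at gave -0.0060 with quantile normalization and -0.0045 with array weights. The mean over probe sets gave 0.066 for Nrp2, -0.049 for Plxna1 and 0.17 for Ncam2, where the brightest probe set lay the other way. With 1 array left out, the sign also turned for Sema3a 1420417_at (-0.25 to 0.13), Slit1 1425277_at (-0.54 to 0.24), Efna5 1436866_at (-0.24 to 0.15), Efna5 1421796_a_at (-0.083 to 0.023), Nrp1 1448944_at (-0.053 to 0.29), Nrp1 1457198_at (-0.049 to 0.23), Nrp2 1435349_at (-0.27 to 0.24), Nrp2 1426528_at (-0.030 to 0.45), Nrp2 1456778_at (-0.15 to 0.45), Nrp2 1447343_at (-0.11 to 0.28), Plxna1 1428623_at (-0.027 to 0.19), Epha5 1444690_at (-0.062 to 0.42), Epha5 1437920_at (-0.044 to 0.22), Kirrel3 1452728_at (-0.20 to 0.16), Kirrel3 1431402_at (-0.44 to 0.022), Ncam2 1425301_at (-0.43 to 0.22) and Ncam2 1421592_at (-0.060 to 0.66). The probe sets of the 10 genes not listed here kept their sign throughout, those of Robo2, Slit1 1440056_at and Epha5 1435286_at among them, as did the 21 named pathway probe sets. Where the genotypes did not overlap, leaving out 1 array cannot turn the sign, and the 21 were picked for a small p in these data. A kept sign is therefore no further support for these differences. The cause of the sign changes listed was not tested. With 3 arrays per genotype, differences within the intervals given above could not be told from the spread between mice.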
